A study of Bos taurus with 10 samples.

Results

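Canonical WNT signalling was followed through 10 genes in single bovine early blastocysts that lacked an intact *SOX2* gene or carried it unedited. They are the ligand gene *WNT3A*, the β-catenin gene *CTNNB1*, 4 genes of the complex that degrades β-catenin (*AXIN1*, *AXIN2*, *APC*, *GSK3B*) and the 4 genes of the TCF/LEF DNA-binding factors (*TCF7*, *TCF7L1*, *TCF7L2*, *LEF1*). The genes were chosen by name, and all 10 were among the 20112 genes of the deposited table and among the 20056 genes that passed the filter on low values, a mean normalized read count of at least 1. The study had itself named *WNT3A* among the genes that differed in these embryos, so its values below are not independent evidence.

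Each sample was 1 whole early blastocyst, produced by fertilizing oocytes from abattoir ovaries in vitro, and its polyadenylated RNA was sequenced with Smart-seq2. The 5 WT embryos (nc1 to nc5) were injected as zygotes with the mRNA of BE3, a cytosine base editor that turns C into T at sites chosen by a guide RNA, and received no guide. The 5 *SOX2* KO embryos (ko1 to ko5) received the same mRNA with a mix of guides that place premature stop codons in *SOX2*, so both groups carried the editor. The labels place collection at day 7.0 after fertilization and the methods of the study at D7.5. Each KO embryo was edited on its own and genotyped from part of its cDNA, so the group is not 1 line. The breed and the sires of the embryos are not given in the sources used here. Inner cell mass and trophectoderm were sequenced together, so that fewer cells of a type and less RNA per cell cannot be told apart. Nothing in the labels says whether embryos shared a collection, and p-values measure the spread between these embryos.

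In canonical WNT signalling a secreted, lipid-modified WNT protein binds a Frizzled receptor and an LRP co-receptor at the cell surface. Without ligand, a complex of AXIN, APC and the kinases GSK3 and CK1 marks β-catenin for destruction. With ligand, that complex is held back, and β-catenin enters the nucleus and joins TCF/LEF factors, which otherwise keep many target genes silent. In mouse embryos and stem cells the pathway is known for its part in pluripotency, where TCF7L1 acts mainly as a repressor, and for starting gastrulation. Much of it is set by protein stability and location, which RNA levels do not show.

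The libraries held 2223670 to 5134855 reads on genes in WT and 2578284 to 4337342 in *SOX2* KO. The ribosomal RNA gene *RN18S1* took 26.4 to 37.0% of reads in WT and 32.5 to 45.0% in KO, and 15919 to 18092 genes had a read in a WT embryo against 17987 to 19813 in a KO embryo. *SOX2* transcript, which a stop codon need not remove, was 78.2 ± 14.1 (SD, n = 5) normalized read counts in WT and 56.6 ± 23.2 in KO, with overlapping groups. Of 11 epiblast markers measured, 5 fell and 0 rose, and their summed level was 2857 to 3599 in WT and 1702 to 2105 in KO. Of 10 primitive endoderm markers 4 fell and 1 rose (summed level 2336 to 3079 and 2066 to 2578), and of 13 trophectoderm markers 2 rose and 0 fell (27968 to 41197 and 38889 to 52850). The trophectoderm sum was led by the keratin genes *KRT8* (mean 17496 in WT and 22437 in KO) and *KRT18* (9100 and 15124). By the adjusted p alone, without the 2-fold threshold, 3 trophectoderm markers were higher and 1 lower, *TFAP2C* (difference −0.49, limma adjusted p = 0.0352). Of 7 markers of cumulus cells, the cells around the oocyte, 0 were called by limma (46.0 to 154 and 85.4 to 463), and edgeR called 1 and DESeq2 0. At an unadjusted limma p under 0.05, 1 was higher, and the share of all tested genes there was not computed. In KO embryos other than ko4 the sum was led by *CYP11A1*, at 402, 331, 359, 1.64 and 228 in KO and 14.8 to 83.9 in WT (limma adjusted p = 0.196). All 7 differences were positive, but the means of *FSHR* (23.2 and 24.5) and *CYP19A1* (9.99 and 11.4) were close. All of these markers had reads in both groups, and over all tested genes 8.93% rose and 1.16% fell. The part of these marker levels in the WNT values below was not tested.

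*WNT3A*, the ligand gene, was higher in every *SOX2* KO embryo than in any WT embryo, at very low levels in both groups. The 5 WT embryos held 0, 1.48, 1.99, 2.33 and 1.77 normalized read counts (nc1 to nc5), from 0, 1, 2, 3 and 3 reads. The 5 KO embryos held 8.91, 10.6, 3.49, 5.75 and 9.22 (ko1 to ko5), from 8, 8, 3, 7 and 8 reads. The groups did not overlap on the normalized scale, but ko3 held as many reads as nc4 and nc5. The means were 1.51 ± 0.90 in WT and 7.59 ± 2.89 in KO (SD, n = 5), a difference of 1.80 on the log2(normalized read count + 1) scale (SE 0.53, 95% interval 0.69 to 2.91, limma adjusted p = 0.0309). This scale, used for every log2 difference here, understates the change of low genes. Set against the summed size factors of each group, the 34 reads in KO and 9 in WT gave a ratio of 4.90 with an exact 95% interval of 2.30 to 11.6, which covers counting error only.

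The call of *WNT3A*, an adjusted p of at most 0.05 with a change of at least 2-fold, rested on few reads and on the method. Fitted to reads, its log2 fold change was 2.32 by DESeq2 (adjusted p = 0.0283) and 2.15 by edgeR's quasi-likelihood test (adjusted p = 0.0506). The limma call was lost without nc1 (adjusted p = 0.0866), nc2 (0.0548), nc5 (0.0510), ko1 (0.0676), ko2 (0.0543) or ko5 (0.0794), while the difference stayed between 1.499 and 2.02 over all 10 such fits. With the *RN18S1* share of each embryo as a covariate the difference was 1.84 and limma's adjusted p was 0.218. With quantile normalization, under which the median of genes at such levels was 0.06, the difference was 0.93 and limma's adjusted p was 0.268. The call was also lost with a pseudocount of 0.1 (adjusted p = 0.0689) and with one of 5, where the difference was 0.93, under 2-fold. Low genes were called higher often in these embryos, at 14.1% of the 8722 tested genes whose mean was under 10. The median difference of those genes was 0.93 (quartiles 0.31 and 1.46), and 12.6% of them had a difference at least as high as that of *WNT3A*. Groups without overlap and higher in KO were found for 8.85% of them.

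**Figure D1:**
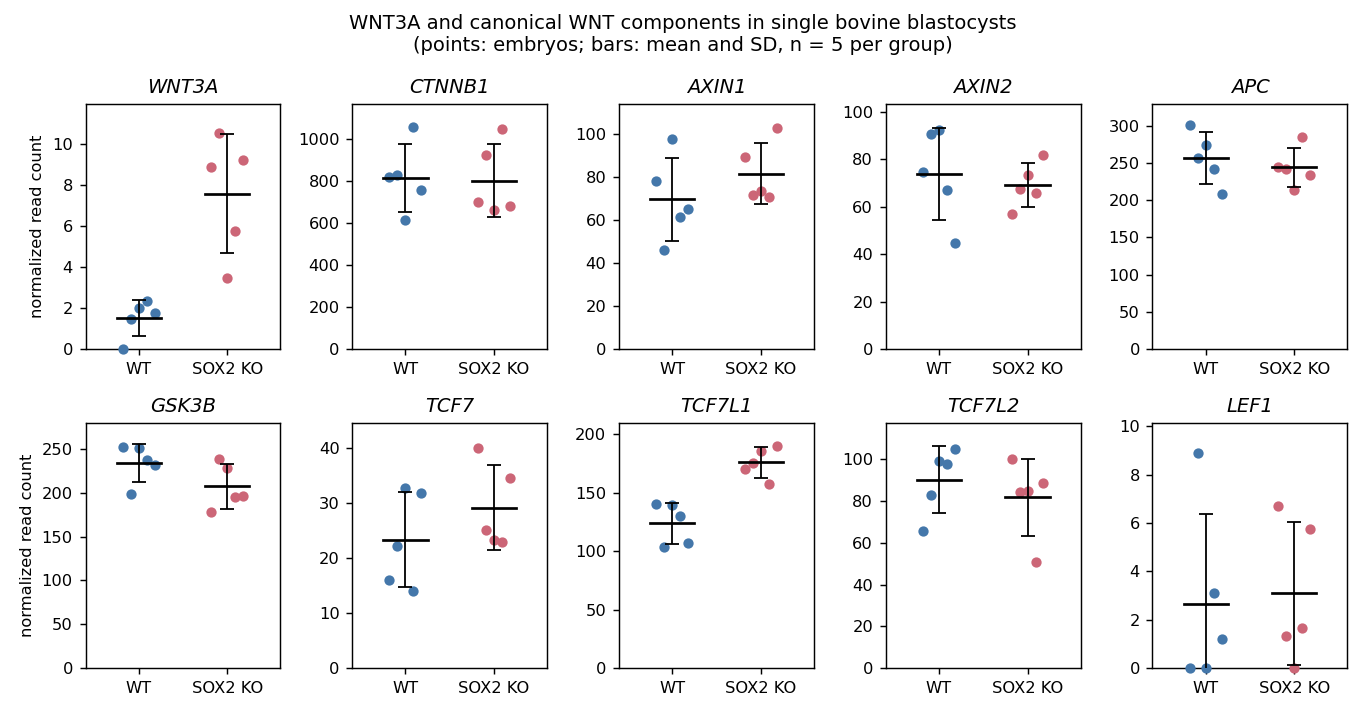
Normalized read counts of the 10 WNT pathway genes in each embryo (y axis, from 0, own scale per gene) in WT and *SOX2* KO. Points are embryos, and bars give the mean and SD of 5. The groups are apart for *WNT3A* and *TCF7L1* and overlap for the other 8 genes.

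Of the 10 genes, 1 was called higher in *SOX2* KO and 0 were called lower by limma, beside 8.93% and 1.16% of all tested genes, and 0 were lower at an unadjusted p under 0.05. Counting the adjusted p alone, *WNT3A* and *TCF7L1* passed, 2 of 10, beside 13.6% of all tested genes in either direction. The same 2 genes had groups without overlap, beside 9.17% of all tested genes. The other 8 genes had overlapping groups and adjusted p-values of 0.430 to 0.932, and 5 of the 10 log2 differences were positive and 5 negative. The median of the 10 was 0.11, and that of all tested genes was 0.25. By DESeq2, which called 9.44% of all tested genes higher, 1 of the 10 was called higher, and by edgeR, which called 8.41%, 0 were. Both called 0 of the 10 lower.

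*CTNNB1*, which encodes β-catenin, the protein through which the pathway acts on transcription, held close values in the 2 groups. WT embryos had 820, 826, 614, 1059 and 757 normalized read counts and KO embryos 701, 922, 660, 1047 and 679. The lowest value of all was in a WT embryo and the ranges lay almost on top of each other. The difference was −0.03 (SE 0.17, 95% interval −0.39 to 0.33, limma adjusted p = 0.932), an interval that leaves out a 2-fold change either way.

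The 4 genes of the destruction complex did not pass the test either. *AXIN1*, the limiting scaffold of the complex, was 77.8, 46.0, 97.4, 61.4 and 64.9 in WT and 89.1, 71.3, 73.3, 70.6 and 103 in KO, a difference of 0.25 (SE 0.22, 95% interval −0.20 to 0.71). *AXIN2*, a second scaffold and a widely used target gene of the pathway that feeds back on it, was 74.8, 90.5, 92.5, 66.8 and 44.9 in WT and 56.8, 67.3, 73.3, 65.7 and 81.9 in KO. Its highest and its lowest values were both in WT embryos, and the difference was −0.06 (SE 0.22, 95% interval −0.52 to 0.40, limma adjusted p = 0.872). Read as a target, *AXIN2* thus gave no detectable difference, and its interval leaves out a 2-fold rise on this scale.

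*APC*, a scaffold that holds β-catenin in the complex, was 301, 257, 274, 242 and 208 in WT and 245, 242, 214, 285 and 234 in KO. The difference was −0.07 (SE 0.15, 95% interval −0.38 to 0.25). *GSK3B*, the kinase that phosphorylates β-catenin, was 251.8, 199, 251, 237 and 232 in WT and 178, 239, 228, 195 and 196 in KO. Here 3 KO embryos lay below every WT embryo and the other 2 within the WT range, and the difference was −0.18 (SE 0.15, 95% interval −0.49 to 0.14, limma adjusted p = 0.430).

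Among the TCF/LEF genes, *TCF7L1* was higher in every KO embryo than in any WT embryo. It was 140, 104, 139, 130 and 107 in WT and 170, 176, 186, 158 and 190 in KO, with means of 124 ± 17.6 and 176 ± 12.9 (SD, n = 5). The difference was 0.51 (SE 0.16, limma adjusted p = 0.0419), a 1.42-fold change with a 95% interval of 1.13 to 1.80, so that it passed the adjusted p and not the 2-fold threshold. Of the 4548 tested genes whose mean was 100 or more, 14.8% passed the adjusted p alone, 10.6% had groups without overlap, and 9.01% had a difference at least as high. The adjusted p of *TCF7L1* was above 0.05 in 8 of 10 limma fits that left out 1 embryo, all but those without nc3 (0.0326) or ko4 (0.0246), and reached 0.101. It was also above 0.05 with TMM scaling (0.0997), with edgeR (0.0921) and with the *RN18S1* share as a covariate (0.461, difference 0.32), while DESeq2 gave 0.0238.

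The other 3 TCF/LEF genes overlapped between the groups. *TCF7L2* was 65.6, 83.0, 99.4, 97.9 and 105 in WT and 100, 84.5, 84.9, 50.9 and 88.8 in KO, a difference of −0.15 (SE 0.21, 95% interval −0.60 to 0.29, limma adjusted p = 0.647). *TCF7* was 16.0, 22.2, 32.8, 13.99 and 31.9 in WT and 40.1, 25.1, 23.3, 23.0 and 34.6 in KO. Its lowest values were nc1 and nc4, but nc3 and nc5 lay among the KO values, and the difference was 0.35 (SE 0.32, 95% interval −0.32 to 1.02). *LEF1*, an activating partner of β-catenin, was near the limit of detection, with 0, 6, 0, 4 and 2 reads in WT and 6, 1, 0, 2 and 5 in KO. The 12 WT and 14 KO reads gave a ratio of 1.51 with an exact 95% counting interval of 0.65 to 3.58, so that neither a rise nor a fall of *LEF1* was detectable at this depth.

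**Figure D2:**
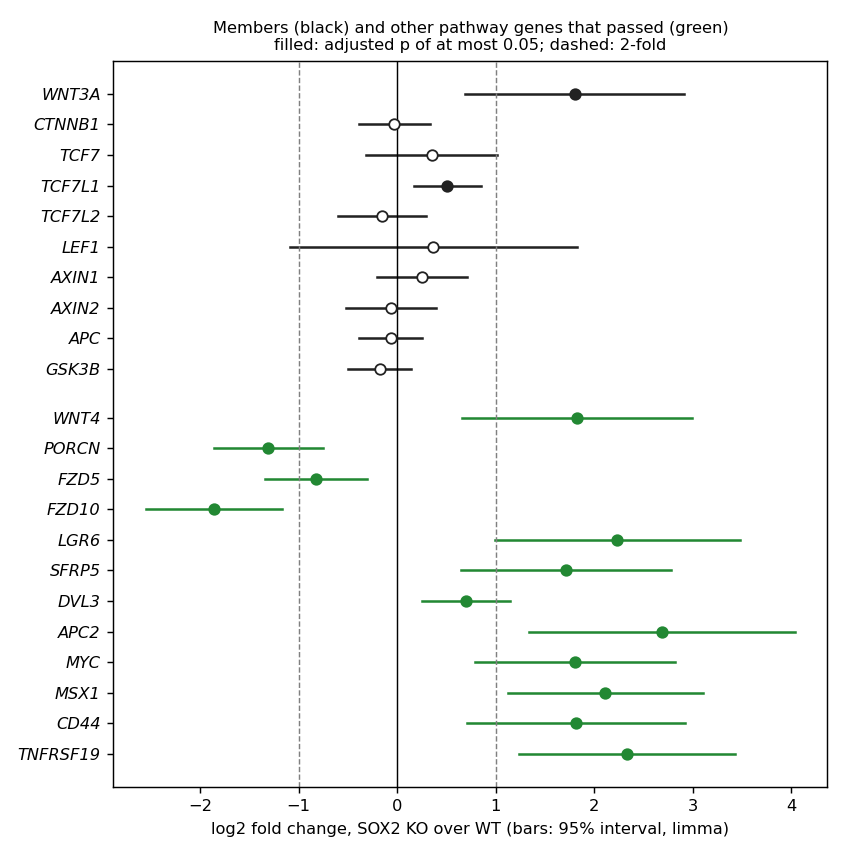
Log2 difference of *SOX2* KO over WT (x axis) for the 10 WNT genes in black and the 12 other pathway genes with an adjusted p of at most 0.05 in green. Bars are 95% intervals from limma on 5 embryos per group, filled points passed the adjusted p, and dashed lines mark 2-fold. *WNT3A* at 1.80 lies past 2-fold and *TCF7L1* at 0.51 does not.

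The make-up of the TCF/LEF reads was compared within each embryo, where the size factor cancels out. *TCF7L1* took 63.2, 47.6, 51.3, 53.0 and 43.6% of the reads on the 4 genes in WT and 53.7, 61.3, 63.2, 67.6 and 59.6% in KO. *TCF7L2* took 29.6, 38.1, 36.6, 40.0 and 42.9% in WT and 31.6, 29.5, 28.9, 21.8 and 27.8% in KO. In both cases nc1 lay within the KO values and the other 4 WT embryos lay beyond all of them. The mean share of *TCF7L1* was 9.33 percentage points higher in KO (51.8 ± 7.36% against 61.1 ± 5.11%, two-sided exact permutation p = 0.0556, adjusted over 6 shares p = 0.111). That of *TCF7L2* differed by −9.52 points (37.4 ± 4.99% against 27.9 ± 3.67%, exact permutation p = 0.0159, adjusted p = 0.0476). *TCF7* (9.65 and 9.996%, exact permutation p = 0.833) and *LEF1* (1.17 and 1.02%, exact permutation p = 0.897) did not pass. These shares rest on 147 to 415 reads per embryo, follow gene length as well as transcript number, and sum to a whole, so that one cannot move alone.

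In the other families, *AXIN2* took 51.4 ± 9.31% of the reads on *AXIN1* and *AXIN2* in WT and 46.0 ± 4.47% in KO (exact permutation p = 0.286, adjusted p = 0.429). *GSK3B* took 75.9, 83.2, 72.2, 75.9 and 80.5% of the reads on *GSK3A* and *GSK3B* in WT and 75.8, 70.4, 68.1, 69.5 and 69.1% in KO. Here 4 KO embryos lay below every WT embryo, and ko1 lay among the WT values. The mean differed by −6.96 points (exact permutation p = 0.0159, adjusted p = 0.0476), while neither gene passed on its own, with *GSK3A*, the sister kinase, at 69.6 ± 21.9 in WT and 87.4 ± 19.3 in KO. The smallest p that 5 against 5 embryos allow is 0.00794 before adjustment, so that the adjusted p-values of the shares move in coarse steps. Whether a share passed is thus a coarse guide. With 1 embryo left out, the adjusted p of the *TCF7L2* share stayed under 0.05 only without nc1, nc3 or ko1 (0.0476 each) and that of the *GSK3B* share only without nc3 or ko1 (0.0476 each), and both reached 0.119. The *TCF7L1* share passed only without nc1 (difference 12.2 points, adjusted p = 0.0476).

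**Figure D3:**
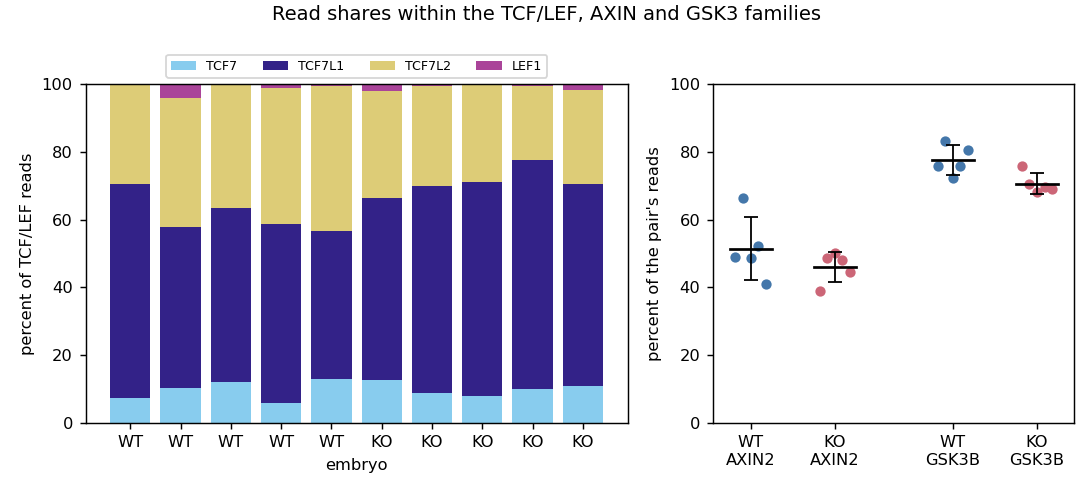
Left, percent of the reads on *TCF7*, *TCF7L1*, *TCF7L2* and *LEF1* in each of the 10 embryos (x axis, WT in the order nc1 to nc5, then KO in the order ko1 to ko5). Right, percent of the pair's reads on *AXIN2* (of *AXIN1* and *AXIN2*) and *GSK3B* (of *GSK3A* and *GSK3B*), with points for embryos and bars for the mean and SD of 5. The mean share of *TCF7L2* was 37.4% in WT and 27.9% in KO, with overlapping groups.

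The rest of the pathway was read from lists of 103 other genes, of which 92 were in the table and tested. Of these, 8 were called higher and 2 lower, 82 were not called, and the median difference was 0.44 against 0.25 for all tested genes. The share called over all tested genes was 8.93% higher and 1.16% lower, so that the count of pathway genes that rose was close to the background. The level of the genes went with these counts. The mean was under 10 for 44 pathway genes, of which 6 rose and 0 fell, and their median was 0.91. Over all tested genes at such levels 14.1% rose and the median was 0.93. The mean was 10 or more for the other 48, of which 2 rose and 2 fell, with a median of 0.13. Of all 11334 tested genes at such levels 1.90% fell. Among tested genes with a mean of 10 to under 100, 459 of 6786 rose (median difference 0.04). Among those with a mean of at least 100, 104 of 4548 rose (median difference −0.11). Leaving out 1 embryo changed the 8 called higher to 4 (without nc1), 5 (without nc4), 3 (without ko1), 4 (without ko5) or 17 (without ko4), and with the *RN18S1* share as a covariate 1 was called higher and 1 lower. DESeq2 called 7 higher and edgeR 6. Groups did not overlap for 6 of the 92 genes with KO higher and for 4 with KO lower. Of all tested genes 9.17% had groups without overlap in either direction.

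**Figure D4:**
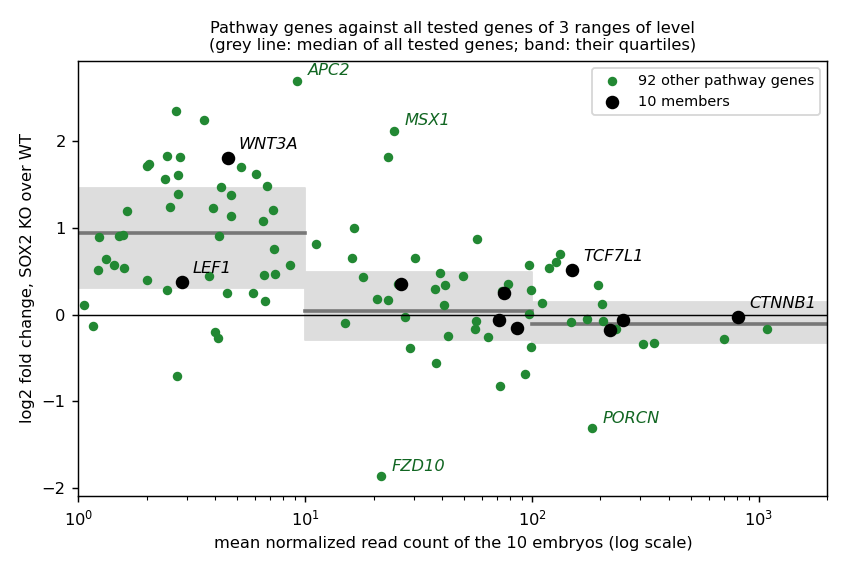
Log2 difference of *SOX2* KO over WT (y axis) against the mean normalized read count of the 10 embryos (x axis, log scale) for the 10 WNT genes in black and 92 other pathway genes in green. The grey line and band are the median and quartiles of all tested genes with a mean under 10, from 10 to under 100, and at least 100. The grey medians are 0.93, 0.04 and −0.11, and *WNT3A* lies above its band while *LEF1* lies inside it.

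Of the 18 other WNT ligand genes, 16 were in the table, 14 of them with a mean under 10. *WNT4* was called higher and 0 were called lower, beside 8.93% and 1.16% of all tested genes, and 14.1% higher of those whose mean was under 10. Of the 16 differences 15 were positive, with a median of 1.16. Most differences at such low levels were positive, with quartiles of 0.31 and 1.46 over all tested genes whose mean was under 10. *WNT4*, a ligand known from gonad and kidney development, had 0, 0, 2, 0 and 1 reads in WT and 4, 3, 5, 1 and 6 in KO. The difference was 1.83 (SE 0.56, limma adjusted p = 0.0367), and the call was kept only without nc3, ko2 or ko4 when 1 embryo was left out, with adjusted p-values up to 0.0986. It was also lost with DESeq2 (adjusted p = 0.0607), edgeR (0.0663), quantile normalization (0.251) and the *RN18S1* share as a covariate (0.472), and with a pseudocount of 5 its difference was 0.74, under 2-fold. DESeq2 and edgeR called 0 of the 16 ligand genes. At an unadjusted limma p under 0.05, 8 were higher, but the share of all tested genes at that threshold was not computed. The 8 thus do not show a rise particular to ligand genes. *WNT6* was 40.7 ± 8.32 in WT and 58.7 ± 25.1 in KO (limma adjusted p = 0.270).

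Summed over all 17 ligand genes, *WNT3A* included, WT embryos held 71.7, 65.3, 87.5, 79.3 and 70.8 normalized read counts and KO embryos 161, 144, 192, 91.2 and 196. Without *WNT5A* and *WNT6* the sums were 11.9 to 33.8 in WT and 42.7 to 108 in KO. Every KO sum was above every WT sum both ways, and ko4 was the KO embryo closest to WT. The number of ligand genes with a read was 10, 8, 16, 12 and 14 in WT and 17, 12, 13, 13 and 16 in KO, so that these overlapped. As for *WNT3A*, most of the ligand genes are low genes, and over all tested genes whose mean was under 10 the median difference was 0.93. No test was made of the sums, and no sums of other low genes were made for comparison. The sums thus do not show a rise particular to ligand genes.

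Of 3 genes of ligand secretion and removal, *PORCN*, whose enzyme adds the lipid that WNT proteins need to be secreted, fell. Of all tested genes 1.16% fell. It was 444, 151, 305, 153 and 274 in WT and 106, 70.0, 105, 78.9 and 148 in KO. All KO embryos lay below all WT embryos, although nc2 and nc4 were close to ko5. The difference was −1.31 (SE 0.26, 95% interval −1.86 to −0.76, limma adjusted p = 0.0041), that is 2.47-fold lower, and the call was kept in all 20 other fits, with adjusted p-values of 0.00016 to 0.0131.

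Of 14 receptor genes, 1 fell and 0 rose, beside 1.16% and 8.93% of all tested genes. Their median was 0.45, and that of all tested genes was 0.25. *FZD10*, a Frizzled receptor gene, was 31.3, 40.0, 33.8, 33.4 and 31.9 in WT and 8.91, 13.2, 9.30, 7.39 and 5.77 in KO. The groups were wide apart, with a difference of −1.86 (SE 0.33, limma adjusted p = 0.0016), 3.63-fold lower, and the call was lost only with the *RN18S1* share as a covariate (adjusted p = 0.0544). *FZD5*, a further Frizzled gene, was 102, 114, 67.6, 90.1 and 81.5 in WT and 63.5, 30.4, 77.9, 37.8 and 56.5 in KO, with ko3 above nc3. Its difference of −0.82 (SE 0.25, limma adjusted p = 0.0354) was short of 2-fold, and the adjusted p rose above 0.05 without nc1 (0.0799), nc2 (0.0870), nc4 (0.0675), nc5 (0.0523), ko2 (0.0735) or ko5 (0.0626), with quantile normalization (0.0610) and with the covariate (0.157). *LRP6*, the co-receptor gene, was 176 ± 52.6 in WT and 216 ± 10.9 in KO (limma adjusted p = 0.207).

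Around the receptor, 1 of 9 genes of R-spondins and receptor turnover and 1 of 11 genes of extracellular inhibitors were called higher, and 0 lower. Of all tested genes 8.93% were called higher and 1.16% lower. The mean was under 10 for 5 of the 9 and 9 of the 11, and 14.1% of all tested genes at such levels rose. *LGR6*, which encodes a receptor for R-spondins, had 0, 0, 2, 0 and 0 reads in WT and 18, 3, 4, 2 and 3 in KO. The difference was 2.24 (SE 0.60, limma adjusted p = 0.0198), 18 of its 30 KO reads were in ko1, and without ko1 the adjusted p was 0.0562. The call was also lost with quantile normalization (adjusted p = 0.0973) and the covariate (0.273), and with a pseudocount of 5 the difference was 0.96, under 2-fold. *SFRP5*, whose product binds WNT proteins outside the cell, had 2 reads in all of WT and 16 in KO, 2 to 5 per embryo. It differed by 1.71 (SE 0.51, limma adjusted p = 0.0328), a call kept only without nc2, ko2 or ko4 when 1 embryo was left out, with adjusted p-values up to 0.0808. It was also lost with DESeq2 (adjusted p = 0.0551), edgeR (0.0624), quantile normalization (0.475) and the covariate (0.165), and with a pseudocount of 5 its difference was 0.65, under 2-fold. DESeq2 and edgeR called 0 of the 11 inhibitor genes. At an unadjusted limma p under 0.05, 3 were higher, but the share of all tested genes at that threshold was not computed. *LGR4*, a second R-spondin receptor gene, differed by 0.29 (limma adjusted p = 0.300), and *KREMEN1*, whose product binds DKK inhibitors, by 0.87 (limma adjusted p = 0.0803).

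Inside the cell, 1 of 15 other cytoplasmic genes was called higher and 0 lower, beside 8.93% and 1.16% of all tested genes. Of 15 other nuclear genes, 0 were called in either direction by limma, DESeq2 or edgeR. At an unadjusted limma p under 0.05, 1 nuclear gene was higher and 2 lower. The share of all tested genes at that threshold was not computed. *APC2*, a relative of *APC*, was 0, 0, 2.98, 1.55 and 3.54 in WT and 34.5, 15.8, 10.5, 2.46 and 20.8 in KO, from 11 and 73 reads. Its ko4 value lay among the WT values and the other 4 KO embryos above them. The difference was 2.69 (SE 0.65, limma adjusted p = 0.0118), and the call was lost only with the *RN18S1* share as a covariate (adjusted p = 0.230). *DVL3*, which relays the signal from Frizzled, was 118, 68.2, 171, 87.8 and 74.96 in WT and 153, 162, 170, 147 and 171 in KO. It differed by 0.70 (SE 0.22, limma adjusted p = 0.0367), short of 2-fold, with 4 WT embryos below all KO embryos and nc3 at the top of them. Its adjusted p stayed under 0.05 only without nc1, nc3 or ko4 when 1 embryo was left out, and reached 0.0960. It was also above 0.05 with DESeq2 (0.0553), edgeR (0.0908), TMM scaling (0.0653), the filter at a mean of 10 (0.0510) and the covariate (0.572, difference 0.32).

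The cytoplasmic kinase gene *CSNK1A1*, which primes β-catenin for GSK3, was 1137 ± 105 in WT and 1025 ± 241 in KO (limma adjusted p = 0.476). The nuclear list had a median of −0.17, with 10 of 15 differences negative, and 0 of the 15 had a mean under 10. Over all tested genes the median was 0.04 at a mean of 10 to under 100 and −0.11 at 100 or more. *EP300*, an acetyltransferase that works with β-catenin, was 775 ± 146 in WT and 627 ± 25.5 in KO (limma adjusted p = 0.187). Its relative *CREBBP* was 346 ± 41.4 and 272 ± 8.20, with all KO embryos below all WT embryos (limma adjusted p = 0.105). Groups without overlap, in either direction, were found for 10.6% of tested genes whose mean was 100 or more.

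Of 15 genes known as targets of the pathway in other tissues, 4 rose, 0 fell and 11 did not pass, beside 8.93% of all tested genes that rose (14.1% of those whose mean was under 10, as it was for 10 of the 15) and 1.16% that fell. DESeq2 called 4 of them higher and edgeR 3, and the median was 0.25, as for all tested genes. *MSX1*, a homeobox gene, was 6.87, 8.90, 1.99, 7.77 and 20.1 in WT and 39.0, 44.9, 75.6, 23.0 and 18.4 in KO. It differed by 2.11 (SE 0.47, limma adjusted p = 0.0081), ko5 was its 1 KO value under the highest WT value, and the call was kept in all 20 other fits. *MYC*, a growth-promoting transcription factor gene that the study had also named in these embryos, was 3.05, 5.93, 4.97, 29.5 and 14.2 in WT and 51.2, 44.9, 15.1, 28.8 and 34.6 in KO. The groups overlapped through nc4, the difference was 1.81 (SE 0.49, limma adjusted p = 0.0206), and the call was lost without nc1 (0.0545), ko1 (0.0656) or ko5 (0.0556) and with the covariate (0.106).

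The other 2 targets that rose had very few reads. *TNFRSF19*, a receptor of the TNF family, had 1 read in WT and 23 in KO (2 to 8 per embryo), a difference of 2.34 (SE 0.53, limma adjusted p = 0.0082), and it still passed when any 1 embryo was left out. Its call was lost with quantile normalization (adjusted p = 0.0861) and the covariate (0.123), and with a pseudocount of 5 its difference was 0.95, under 2-fold. *CD44*, the hyaluronan receptor gene, had 4 and 22 reads and a difference of 1.81 (SE 0.53, limma adjusted p = 0.0298), and its call was lost without nc1 (0.0787), nc3 (0.0536), nc4 (0.0547), ko1 (0.0624) or ko5 (0.0892). It was also lost with edgeR (adjusted p = 0.0557), a pseudocount of 0.1 (0.0517), quantile normalization (0.343) and the covariate (0.222), and with a pseudocount of 5 its difference was 0.78, under 2-fold. Neither group pair overlapped, as for 8.85% of tested genes with a mean under 10 that were higher in KO without overlap.

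Beside *AXIN2*, given above, the inhibitors that the pathway is known to induce against itself did not pass. Differences were positive for *NOTUM* (0.54, limma adjusted p = 0.519), *NKD1* (0.25, 0.800), *ZNRF3* (0.17, 0.774) and *RNF43* (0.81, 0.178) and negative for *DKK1* (−0.71, 0.454). *LGR5*, a stem cell marker of adult gut, differed by −0.27 (limma adjusted p = 0.764). *SP5* (−0.20, limma adjusted p = 0.855), *SP8* (0.24, 0.756) and the mesoderm and trophoblast factor *EOMES* (0.11, 0.911) showed no detectable difference. *CCND1*, the cyclin D1 gene, differed by 1.69 without passing (limma adjusted p = 0.0992), and *MSX2* was 213 ± 44.9 in WT and 199 ± 29.2 in KO (limma adjusted p = 0.792). *ZNRF3*, *RNF43* and *MSX2* had a mean of 10 or more and the rest of these 11 a lower one, where small differences were not detectable at this depth.

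**Figure D5:**
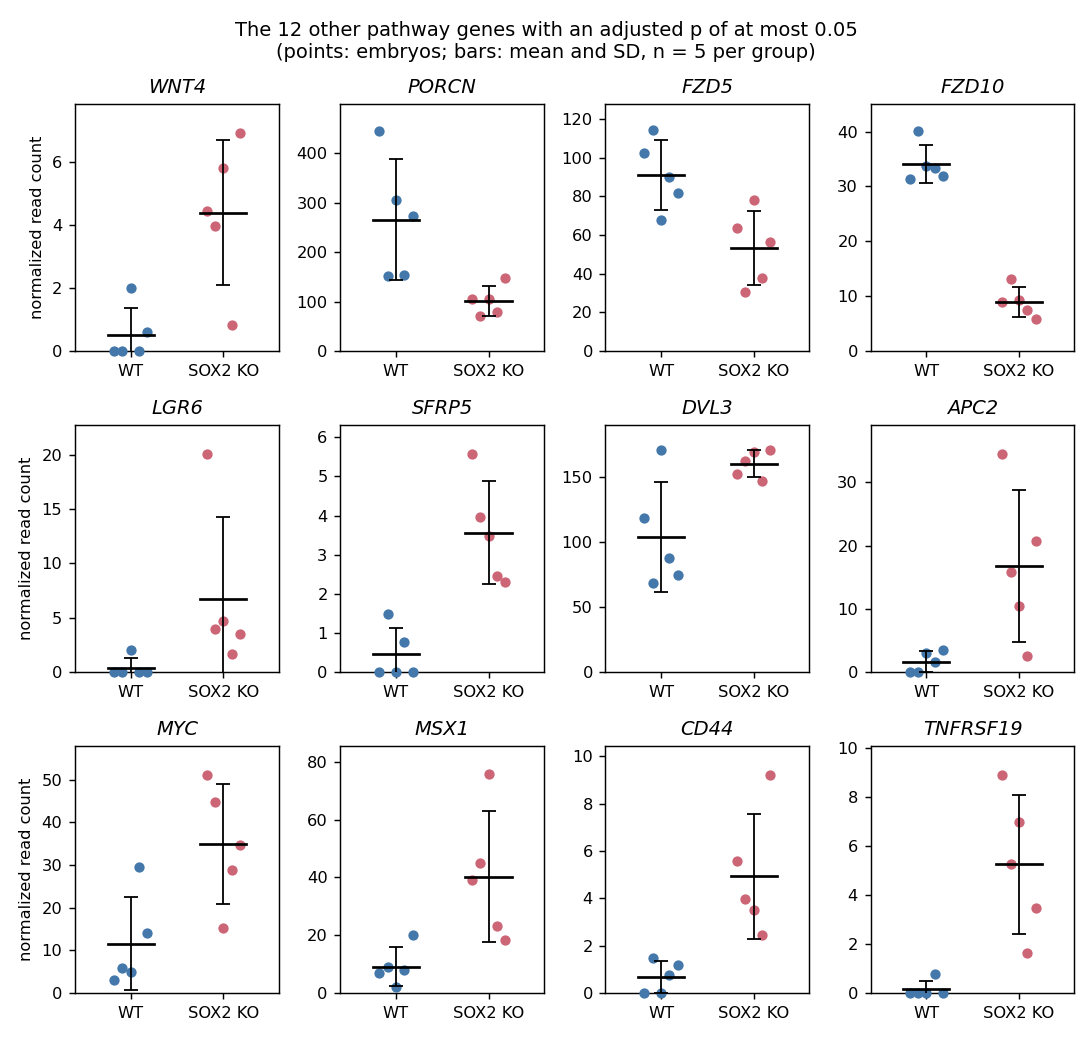
Normalized read counts in each embryo (y axis, from 0, own scale per gene) of the 12 other pathway genes with an adjusted p of at most 0.05. Points are embryos and bars the mean and SD of 5 (bars that would reach below 0 are cut there). *PORCN* and *FZD10* are lower in all KO embryos, and the genes that rose, such as *WNT4* and *CD44*, mostly sit under 10 normalized read counts in WT.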

How the data were processed

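Single embryos of 2 groups, 5 WT and 5 *SOX2* KO, were compared. Per the labels and methods, the authors trimmed reads with Trimmomatic, aligned them to ARS-UCD1.2 with HISAT2, obtained gene counts from featureCounts and divided these by DESeq2 size factors. The deposited values are thus a size-factor-scaled signal, with no correction for gene length, so that levels are compared between embryos and not between genes. Sums over a list of genes are led by its long and abundant genes, and are likewise compared only between embryos. The annotation release, strand setting and treatment of multi-mapped reads are not given in the sources used here, and cDNA was amplified without molecular identifiers, so that intervals from reads cover counting error only.

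Every embryo's values were whole multiples of 1 step (201120 values, 100% whole within 1e-06 of a step), and reads were recovered by dividing by it. The 5 WT columns match their labels by number. The 5 KO columns are numbered otherwise than the labels and were used as members of their group only.

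The main test was limma 3.58.1 (R 4.3.3) with a mean-variance trend, fitted to log2(normalized read count + 1) of the 20056 genes whose mean was 1 or more, with Benjamini-Hochberg adjustment. A gene was called at an adjusted p of at most 0.05 and at least 2-fold, the thresholds of the study. DESeq2 1.42.0 and edgeR 4.0.16 on recovered reads, other pseudocounts (0.1 and 5), scalings and filters, the *RN18S1* share as a covariate, and each embryo left out were alternatives. Steps were tested on simulated data, in which the changed genes all had a mean of at least 10. The recovery of changes in lower genes, such as *WNT3A*, was thus not tested. Shares were tested over embryos with two-sided exact permutation tests. Named genes were the 10, *SOX2*, the pathway genes called, the gene with the highest mean in each list and the target list. The genes most like 1 of the 10 across embryos are not reported here. *FZD5*, *DVL3*, *GSK3A* and *CREBBP* were added after their values were seen. The 10 genes and all lists were chosen with earlier results of these data known. Targets that other lists hold were counted once in the 103. No sequence or position is given, since no genome was used.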

Additional observations from a re-analysis of the deposited data

Results flagged for a closer look

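In 56 groups of 5 embryos, for 22 named genes and 6 shares, Dixon's test at the 95% level marked 4 single embryos as standing apart. For normally distributed values chance gives about 1 in 20, or 2.8. Where only 1 embryo of a group had reads, the test marks it whatever its level, as for *LGR6* and *TNFRSF19* in WT, so that this rate does not hold there. For *FZD10* in WT, nc2 was 40.0 normalized read counts and the others 31.3 to 33.8, all above every KO embryo. For *LGR6* in *SOX2* KO, ko1 was 20.04 and the others 1.64 to 4.65. For *LGR6* in WT, nc3 was 1.99, from 2 reads, and the others were 0. For *TNFRSF19* in WT, nc4 was 0.777, from 1 read, and the others were 0. None of the 4 was in the 10 genes the report is about.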

How the results depend on the processing

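The count of the 10 genes called higher, 1, became 0 with a pseudocount of 0.1 or 5, with quantile normalization, a filter at a mean of 10, edgeR and the *RN18S1* share as a covariate, and 2 with no fold threshold. Over 10 fits leaving out 1 embryo it was 0 to 1, and 0 were called lower throughout. *WNT3A* differed by 2.72 (pseudocount 0.1), 0.93 (pseudocount 5), 0.93 (quantile), 2.15 (edgeR) and 1.84 (covariate), its adjusted p was 0.0263 to 0.268 over these and the other settings, and leaving out embryos gave 1.499 to 2.02. Signs that turned, none past the threshold, were *CTNNB1* at 0.058 (quantile) and 0.22 (covariate), *LEF1* at −0.44 (quantile), *AXIN1* at −0.095 (covariate) and *APC* at 0.0051 (quantile). Without 1 embryo *CTNNB1* ranged from −0.13 to 0.073, *TCF7L2* from −0.26 to 0.0064 and *AXIN2* from −0.23 to 0.028.

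Other pathway genes called higher, 8, became 3 (pseudocount 5), 3 (quantile), 2 (filter at 10) and 1 (covariate), and 3 to 17 without 1 embryo. The 2 called lower became 1 (covariate) and were 2 without any 1 embryo. All genes called higher, 1792, became 1002 (pseudocount 5), 629 (quantile), 502 (filter at 10) and 137 (covariate), and 754 to 3050 without 1 embryo. The 232 lower became 447 (quantile), 83 (covariate) and 641 (no fold threshold), and 176 to 266 without 1 embryo. Of all calls 88.5% were higher, 58.5% with quantile normalization, 62.3% with the covariate and 72.5% with the filter at a mean of 10. Quantile normalization moved the median of all genes by −0.27 and the covariate by −0.11, and the median of genes with a mean under 10 became 0.06 with the former. The cause was not tested, except that the filters left fewer genes.

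Shares without 1 embryo ranged from 7.29 to 12.2 points for *TCF7L1*, −11.5 to −8.00 for *TCF7L2*, −0.63 to 1.19 for *TCF7*, −0.44 to 0.58 for *LEF1*, −8.02 to −1.65 for *AXIN2* and −8.29 to −5.53 for *GSK3B*. No paired analysis was possible because no label or method ties a WT embryo to a KO embryo. Replicate numbers gave no pairs either: the KO columns are numbered 1 to 5 and the labels 1, 2, 3, 5 and 6. No KO column can thus be tied to a label number.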
